A study of Mus musculus with 15 samples.

Results

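The BCL2 family decides whether a cell opens the outer membrane of its mitochondria and dies by apoptosis, and 10 of its genes are described here in embryonic mouse intestine. They were chosen by name (3 antiapoptotic genes, 2 effectors and 5 BH3-only genes) and found by their Entrez identifiers among 36528 genes in the deposited count tables. All 10 were present and all 10 passed the filter on low counts that left 18370 genes for testing. None was past the test in any of 3 comparisons between genotypes of caspase-8, and the 10 transcripts differed between genotype means by at most 0.22 on the log2 scale.

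RNA was sequenced in 15 libraries from the intestine of E16.5 mouse embryos (E is the embryonic day), in 3 genotypes of 5 libraries. All 3 genotypes lacked Mlkl, the gene of the pseudokinase that executes necroptosis, so the controls carry that deletion too. The first genotype had wildtype Casp8 (called wildtype), the second was a Casp8 and Mlkl double knockout (called knockout), and the third was a knockin of the Casp8 C362A substitution with the Mlkl knockout (called C362A). The C362A substitution removes the catalytic cysteine of caspase-8, so that the protein is made without protease activity. The labels mark the tissue of the C362A libraries as inflamed and that of the other libraries as normal. Replicate numbers follow the order of deposition and pair nothing. The sources used here do not say whether each library came from its own embryo, so a p-value measures the spread between these samples, which may in part be technical.

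In this pathway the antiapoptotic proteins BCL2, BCL-XL (from Bcl2l1) and MCL1 hold the effectors BAX and BAK in check. BH3-only proteins (BID, BIM from Bcl2l11, PUMA from Bbc3, NOXA from Pmaip1, and BMF) are made or activated under stress, bind the antiapoptotic proteins through a short helix, the BH3 domain, and some also activate BAX and BAK directly. BID joins this pathway to caspase-8, which cuts it after death receptor signalling so that its C-terminal fragment moves to mitochondria. In intestinal epithelium MCL1 and BCL-XL are known to keep cells alive, and PUMA is known for the death of crypt cells after radiation. Cleavage, binding and protein amounts were not measured in these libraries.

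The helix that joins the family together is shown first, as the coding sequence of 9 of the genes. These are all but Pmaip1, which was left out before the search. The sequences are read 5′ to 3′ from GENCODE M21 transcripts on GRCm38. Capitals mark the BH3 core, 6 codons (18 bases) from the codon of the conserved leucine to that of the conserved aspartate.
Bcl2: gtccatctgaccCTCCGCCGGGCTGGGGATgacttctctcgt
Bcl2l1: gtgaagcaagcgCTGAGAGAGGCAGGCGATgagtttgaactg
Mcl1: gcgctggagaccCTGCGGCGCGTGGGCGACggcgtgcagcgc
Bax: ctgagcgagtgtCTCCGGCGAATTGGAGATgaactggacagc
Bak1: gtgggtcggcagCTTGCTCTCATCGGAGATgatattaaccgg
Bid: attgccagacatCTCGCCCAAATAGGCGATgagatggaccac
Bcl2l11: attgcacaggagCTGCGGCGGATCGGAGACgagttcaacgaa
Bbc3: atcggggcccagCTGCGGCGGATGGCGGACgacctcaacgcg
Bmf: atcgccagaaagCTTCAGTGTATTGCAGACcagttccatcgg

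Over the 36 pairs of these cores, 5 to 15 of the 18 bases were identical. The closest pair was Bbc3 and Bcl2l11, with 15 identical bases, and the most distant was Bmf and Bcl2l1, with 5. The core of the antiapoptotic gene Mcl1 shared 14 bases with each of the BH3-only genes Bcl2l11 and Bbc3. All 9 stretches are coding. On GRCm38 they lie on the minus strand at chr1:106712572-106712613 (Bcl2, exon 1), chr2:152829694-152829735 (Bcl2l1, exon 2), chr7:45465994-45466035 (Bax, exon 3), chr17:27022528-27022569 (Bak1, exon 4), chr6:120897286-120897327 (Bid, exon 4) and chr2:118545097-118545138 (Bmf, exon 4). The plus strand carries those at chr3:95659424-95659465 (Mcl1, exon 1), chr2:128147138-128147179 (Bcl2l11, exon 3) and chr7:16313761-16313802 (Bbc3, exon 3).

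The site at which caspase-8 cuts BID is shown because it ties the altered gene of this study to the family. It lies in exon 3 of Bid at chr6:120900190-120900225 on the minus strand of GRCm38, upstream of the BH3 core in the transcript, and capitals mark the 4 codons that end with the aspartate after which the protein is cut.
Bid: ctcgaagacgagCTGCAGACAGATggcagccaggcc

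Total counts were 31896399 to 38532127 per library. Casp8 checked the label of the knockout: its level was 19.97 to 24.9 RPKM (the deposited reads per kilobase of gene model per 1000000 reads) in wildtype, 3.92 to 5.30 RPKM in knockout and 20.6 to 23.2 RPKM in C362A, and its log2 fold change between knockout and wildtype was −2.28 (SE 0.08, edgeR quasi-likelihood adjusted p = 2.55e-11). Its level cannot tell C362A from wildtype libraries. Mlkl had 6 to 28 counts in each library. The tissue carried the intestinal markers Cdx2 (209 to 313 CPM, counts per 1000000 scaled between libraries by edgeR's TMM factors) and Vil1 (524 to 917 CPM). Of 3 stomach markers Gkn1 was at most 0.163 CPM, Muc5ac had at most 2 counts and Tff1 reached 3.43 CPM in a knockout and 2.90 CPM in a C362A library, while the liver marker Alb reached 586 CPM and the pancreas marker Cpa1 reached 28.2 CPM in single libraries. The enterocyte markers, 8 of 8 tested, summed to 8167 to 28080 CPM in wildtype, 14230 to 17250 CPM in knockout and 5708 to 13600 CPM in C362A, and the values of the family beside these markers and with their level as a covariate are given below. C362A replicate 5 stood apart from the rest of its group: without it, 1807 genes passed between C362A and wildtype (9.76% of those tested) in place of 15, and 805 between C362A and knockout (4.35%) in place of 2.

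Set in order of their level per transcript length, the 10 genes covered a wide range. Means of the deposited RPKM are over the 15 libraries. Bax was highest at 94.9 RPKM, followed by Bak1 at 55.4, Mcl1 at 52.5, Bcl2l1 at 11.2, Pmaip1 at 9.30, Bmf at 9.25, Bid at 7.10, Bcl2 at 3.77, Bcl2l11 at 3.42 and Bbc3 at 1.62 RPKM. The effectors and Mcl1 thus lay above all BH3-only genes. Some neighbours in the order had overlapping ranges. Bak1 was above Mcl1 in 9 of 15 libraries, Pmaip1 was above Bmf in 7, and Bcl2 was above Bcl2l11 in 12. Bcl2l1 was above Pmaip1 in 14 libraries and Bmf was above Bid in 15, and both of these pairs had overlapping ranges too. Ranges did not overlap between Bax and Bak1, Mcl1 and Bcl2l1, Bid and Bcl2, or Bcl2l11 and Bbc3. Among the 18370 genes tested, Bax stood at the 96.1 percentile of RPKM and Bbc3 at the 29.2 percentile.

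**Figure D1:**
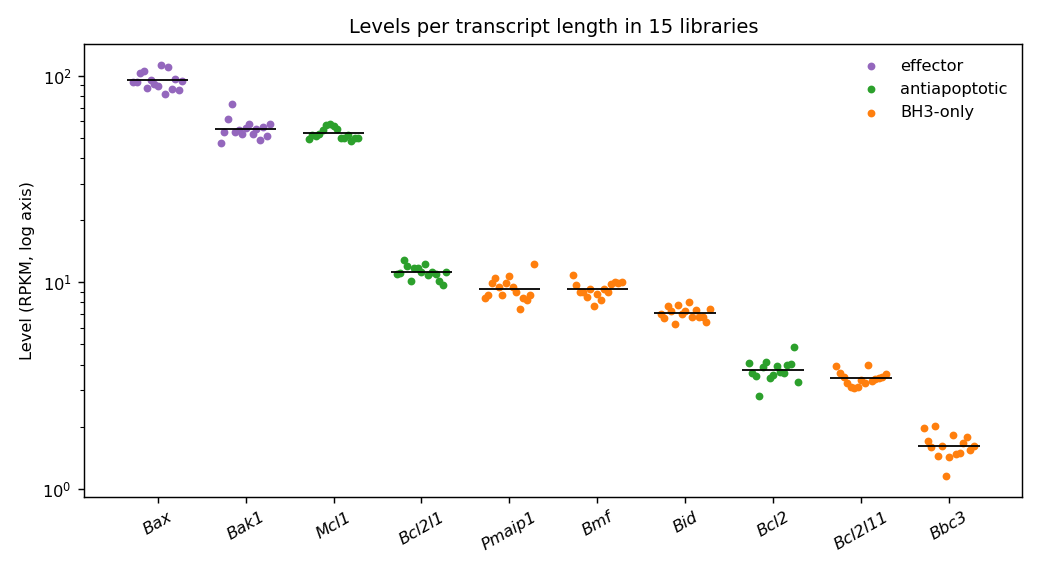
Level of each gene per transcript length in RPKM (log axis), 1 point per library (15 libraries), with the mean as a line and the colour giving the role in the family. Both effectors and Mcl1 sit at or above 47.2 RPKM (the lowest library of Bak1) and the 5 BH3-only genes at or below 12.2 RPKM (the highest library of Pmaip1).

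The 3 roles were summed in RPKM over the 10 genes in each library to see how this part of the family was composed. Further family genes are not in the sums, so sums and shares hold for the 10 genes only. Those left out include the BH3-only gene Bad at 28.4, Bok at 16.4 and the antiapoptotic gene Bcl2l2 at 10.1 RPKM (means of 15 libraries). The antiapoptotic sum was 66.7 ± 1.52 RPKM in wildtype, 70.9 ± 3.63 in knockout and 64.6 ± 1.34 in C362A (mean ± SD, n = 5 each). Most of it was Mcl1, which made up 77.5 ± 1.45% in wildtype, 78.4 ± 0.934% in knockout and 77.4 ± 0.123% in C362A. The effector sum was 154 ± 16.7, 149 ± 14.1 and 148 ± 12.6 RPKM in the same order. The BH3-only sum was 31.0 ± 1.42, 30.4 ± 0.969 and 30.8 ± 2.38 RPKM. Ranges of the 3 genotypes overlapped for each of the 3 sums. These are sums of transcripts of a whole tissue, and they say nothing of the balance of proteins in any cell. In bulk tissue, fewer cells of a type and less RNA per cell cannot be told apart.

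Among the antiapoptotic genes, Mcl1 was the steadiest. Its 5 wildtype libraries had 196, 205, 201, 206 and 216 CPM (replicates 1 to 5, here and below). In knockout the levels were 228, 231, 225, 217 and 200 CPM. In C362A they were 197, 205, 192, 198 and 200 CPM. Of the knockout libraries 4 were above all wildtype and C362A libraries, and replicate 5 lay among them. The log2 fold change of Mcl1 was 0.10 between knockout and wildtype (SE 0.06, 95% interval −0.02 to 0.23, edgeR adjusted p = 0.9999), −0.05 between C362A and wildtype (interval −0.17 to 0.07) and −0.15 between C362A and knockout (SE 0.06, interval −0.27 to −0.03). The last had an unadjusted p of 0.0175 in edgeR and an adjusted p of 0.3173, so it did not pass. Within the 2 runs of consecutive sample identifiers in the labels (2 and 3 libraries per genotype), that difference of mean log2 CPM was −0.09 and −0.19.

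Bcl2, the founding gene of the family, was more variable. It had 4.07, 3.65, 3.53, 2.82 and 3.89 RPKM in wildtype. In knockout it had 4.12, 3.46, 3.56, 3.94 and 3.66 RPKM, and in C362A 3.64, 3.97, 4.03, 4.87 and 3.30 RPKM. The highest library was C362A replicate 4 and the lowest was wildtype replicate 4, and the 3 genotypes overlapped. Between C362A and wildtype its log2 fold change was 0.14 (SE 0.11, 95% interval −0.08 to 0.37, edgeR adjusted p = 0.49). Bcl2l1 lay between 59.2 and 78.0 CPM in the 15 libraries, with log2 fold changes of −0.10 for C362A against wildtype (SE 0.07, interval −0.24 to 0.05), 0.02 for knockout against wildtype and −0.12 for C362A against knockout (interval −0.26 to 0.03).

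The effectors form the pores through which cytochrome c leaves mitochondria. Bax had 77.4 to 93.7 CPM in wildtype, 73.4 to 100.3 CPM in knockout and 75.6 to 97.7 CPM in C362A, with medians of 83.8, 81.4 and 84.9 CPM. Its 3 log2 fold changes were −0.03, −0.03 and 0.00 (knockout against wildtype, C362A against wildtype and C362A against knockout), each with an SE of 0.09. Bak1 had 113, 128, 147, 173 and 128 CPM in wildtype. The knockout libraries had 131, 125, 133, 139 and 125 CPM, and the C362A libraries 131, 117, 135, 122 and 140 CPM. The wildtype libraries held both the lowest and the highest value of Bak1, and the other genotypes lay between these. Its log2 fold change was −0.08 for knockout and −0.09 for C362A against wildtype (SE 0.09 for both, edgeR adjusted p = 0.9999 and 0.6126).

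Bid, the caspase-8 substrate whose cleavage site is printed above, had 22.5, 21.7, 24.5, 23.3 and 20.1 CPM in wildtype. With Casp8 knocked out it had 25.0, 22.5, 23.3, 25.5 and 21.9 CPM. With the C362A substitution it had 23.5, 21.9, 21.8, 20.7 and 23.9 CPM. All 15 libraries lay between 20.1 and 25.5 CPM and the genotypes overlapped. The log2 fold change was 0.07 for knockout (SE 0.07, 95% interval −0.08 to 0.23) and −0.01 for C362A (SE 0.07, interval −0.16 to 0.15) against wildtype, with edgeR adjusted p of 0.9999 and 0.9752. The intervals correspond to 0.944 to 1.18 times the wildtype level in knockout and 0.893 to 1.11 times in C362A.

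The other BH3-only genes included those with the largest differences of the family. Bbc3, the lowest of the 10, had 9.54, 8.26, 7.65, 9.64 and 6.93 CPM in wildtype. In knockout it had 7.78, 5.55, 6.89, 8.70 and 7.16 CPM, and in C362A 7.13, 8.09, 8.63, 7.41 and 7.82 CPM. The lowest library was knockout replicate 2, and the genotypes overlapped. Its log2 fold change of −0.22 between knockout and wildtype (SE 0.12, 95% interval −0.48 to 0.04, edgeR adjusted p = 0.9999) was the largest of the 30 differences (10 genes in 3 comparisons). By runs of sample identifiers this difference was −0.44 and −0.08.

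Bmf, whose protein is held at the cytoskeleton in unstressed cells, had 62.3, 55.2, 50.9, 50.7 and 48.4 CPM in wildtype. In knockout it had 53.2, 43.8, 50.3, 46.4 and 53.4 CPM, and in C362A 50.8, 55.9, 57.4, 56.3 and 57.6 CPM. Of the C362A libraries 4 lay above all knockout libraries, and C362A replicate 1 lay among them. Between C362A and knockout the log2 fold change was 0.17 (SE 0.08, 95% interval 0.01 to 0.33), with an unadjusted p of 0.0418 and an adjusted p of 0.3468 in edgeR. The run values for this difference were 0.23 and 0.14.

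Pmaip1 showed the strongest influence of a single library. Wildtype had 23.0, 23.6, 26.9, 28.4 and 25.7 CPM. Knockout had 23.6, 27.1, 29.2, 25.6 and 24.5 CPM. C362A had 20.1, 23.0, 22.5, 23.5 and 33.4 CPM, so that replicate 5 was the highest of all 15 libraries while the other C362A libraries were at or below 23.5 CPM. With all libraries the log2 fold change of C362A was −0.06 against wildtype (SE 0.11, 95% interval −0.30 to 0.18) and −0.09 against knockout (interval −0.33 to 0.16). Without C362A replicate 5 the values were −0.20 and −0.22 (edgeR adjusted p = 0.136 and 0.109). C362A replicate 5 also had the highest enterocyte marker sum of its group (13595 CPM) and the lowest sum of proliferation markers (810 CPM against 998 to 1145 CPM). The part of the proliferation markers was not tested. With the enterocyte level as a covariate over all libraries, the log2 fold changes of Pmaip1 were 0.12 and 0.14 (edgeR adjusted p = 0.9968 and 0.9991). The enterocyte marker sums of C362A (at most 13600 CPM) and knockout (at least 14230 CPM) did not overlap. The value against knockout therefore cannot part marker level from genotype.

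Bcl2l11 had 23.2 to 29.3 CPM in wildtype, 22.8 to 29.6 CPM in knockout and 24.7 to 27.0 CPM in C362A. The C362A libraries lay inside the range of the wildtype libraries. Its log2 fold changes were −0.06 for knockout and −0.01 for C362A against wildtype, and 0.05 for C362A against knockout, each with an SE of 0.08.

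**Figure D2:**
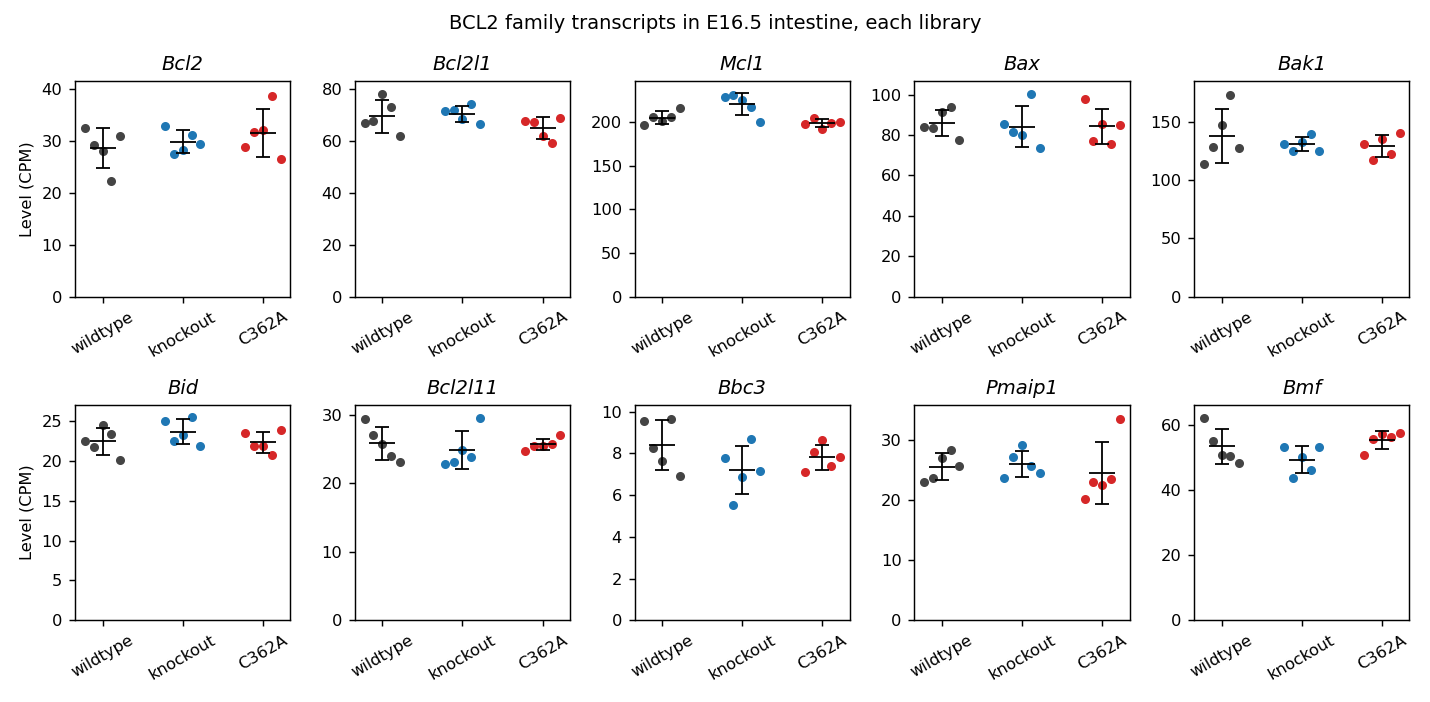
Level of each of the 10 genes in CPM, 1 point per library, with the mean and SD of each genotype (n = 5) as a line and bars; each axis starts at 0. The genotypes overlap for all 10 genes, and C362A replicate 5 stands above the other libraries for Pmaip1.

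The test across all genes gives these values their background. Between C362A and wildtype 0 of the 10 genes passed at an adjusted p under 0.05 in edgeR, where 0.0817% of the 18370 genes passed, and 0 of 10 had an unadjusted p under 0.05, where 15.9% of all genes did. Between knockout and wildtype 0 of 10 passed (0.0381% of all genes), and 0 of 10 had an unadjusted p under 0.05 (2.43% of all genes). Between C362A and knockout 0 of 10 passed (0.0109% of all genes), and 2 of 10, Mcl1 and Bmf, had an unadjusted p under 0.05 (13.9% of all genes). The shares of all genes that passed at an adjusted p under 0.05 are so low that 0 of 10 passing is near the background. Without C362A replicate 5 the count was also 0 of 10 in each comparison, where 9.76% of all genes passed between C362A and wildtype and 4.35% between C362A and knockout, and 0 of 10 is not a property of the family there either. DESeq2 and limma-voom also gave 0 of 10 in each comparison. The genotypes were fully separated for 0 of 10 genes in each comparison, against 1.16%, 0.702% and 2.85% of all genes (C362A against wildtype, knockout against wildtype and C362A against knockout).

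The intervals bound what could have been missed. Of the 30 differences, 28 had a 95% interval that held 0, and the exceptions were those of Mcl1 and Bmf between C362A and knockout. Across the 30, the lowest bound was 0.716 times the wildtype level, for Bbc3 in knockout, and the highest was 1.30 times the knockout level, for Bbc3 in C362A. Each interval stands for its own gene and is not adjusted for the number of genes. The median log2 fold change of the 10 genes was −0.04 between C362A and wildtype (all genes tested 0.01), −0.01 between knockout and wildtype (all genes 0.00) and −0.01 between C362A and knockout (all genes 0.01). The comparisons share samples: the C362A libraries are in 2 of the 3, as are the wildtype and knockout libraries. Within the 2 runs of sample identifiers the sign was the same for 4, 6 and 5 of 10 genes in the order C362A against wildtype, knockout against wildtype and C362A against knockout.

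**Figure D3:**
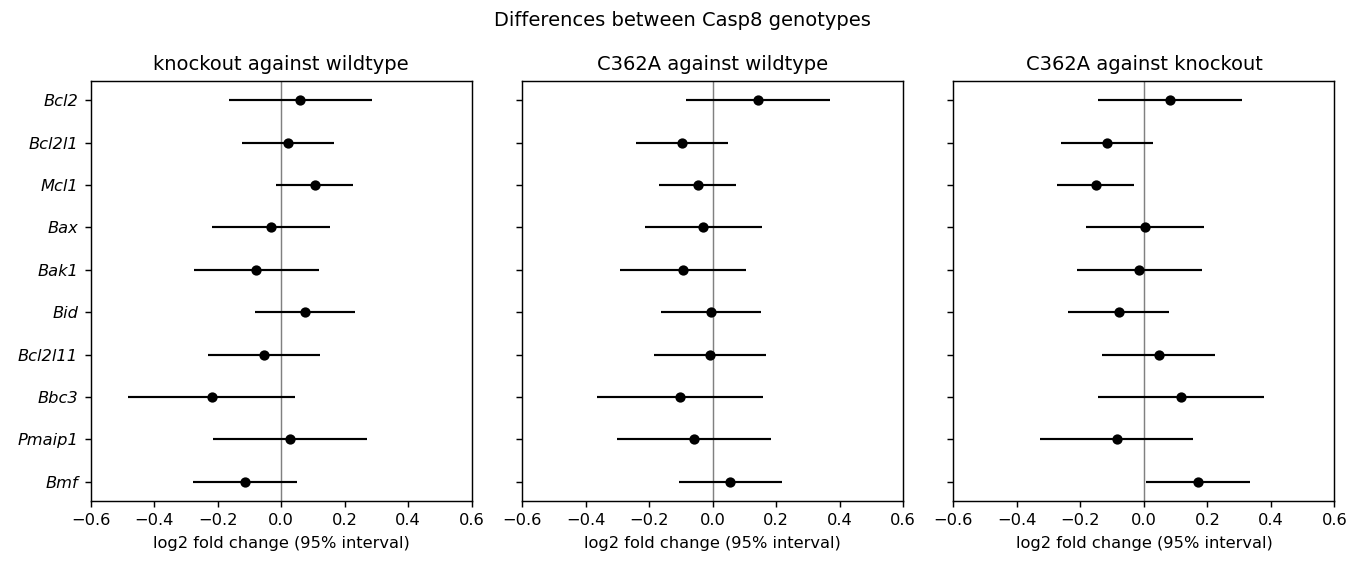
Log2 fold change of the 10 genes in the 3 comparisons (points) with 95% intervals (lines) from the edgeR fit; the vertical line is 0. The points lie between −0.22 and 0.17, and 28 of 30 intervals cross 0.

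Spread within genotypes differed among the genes. The SD of log2 CPM within genotypes was 0.06 for Mcl1, lower than that of all but 0.659% of the genes tested, 0.10 for Bid and Bcl2l1, 0.12 for Bmf and Bcl2l11, 0.14 for Bax, 0.15 for Bak1, 0.18 for Bcl2 and 0.19 for Pmaip1 and Bbc3. The median over the 10 was 0.13. It was 0.20 over all genes tested and 0.16 over the 12696 genes with a mean of at least 5 CPM, a range that holds all 10 family genes. Bid and Bcl2 had similar counts (714 to 891 and 683 to 1337) and differed in spread. Mcl1 had the most counts (6292 to 8508) and the smallest spread, and Bbc3 the fewest counts (204 to 330) and the largest spread. The part of depth in the spread was not tested.

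Some genes of the family varied together over the 15 libraries. Of 45 pairs of genes compared in log2 CPM, 6 had a Benjamini-Hochberg adjusted p under 0.05 for Pearson's r (two-sided permutation tests, 100000 resamples). All libraries share tissue, scaling and the genotypes compared above. The share of such pairs among all genes was not worked out, so 6 of 45 is not shown to be particular to the family. Bcl2l1 and Bid had r = 0.83 (permutation p = 0.0002, adjusted p = 0.009) and Spearman's rho = 0.804 (p = 0.00061, adjusted p = 0.0266), with r = 0.793 without the 2 libraries farthest from the median of Bcl2l1, and r = 0.764 and 0.881 within the 2 runs of sample identifiers. Bid also varied with the effector Bax, at r = 0.722 (permutation p = 0.00261, adjusted p = 0.0409) and rho = 0.707 (p = 0.00404, adjusted p = 0.0266), with r = 0.656 without the 2 farthest libraries. The BH3-only genes Bcl2l11 and Bmf had r = 0.702 (permutation p = 0.00361, adjusted p = 0.0409) and rho = 0.75 (p = 0.00186, adjusted p = 0.0266), with r = 0.72 without the 2 farthest.

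Mcl1 was lower where Bmf and Bcl2l11 were higher. With Bmf it had r = −0.701 (permutation p = 0.00364, adjusted p = 0.0409) and rho = −0.764 (p = 0.00145, adjusted p = 0.0266), and r = −0.70 without the 2 farthest libraries. With Bcl2l11 it had r = −0.677 (permutation p = 0.00605, adjusted p = 0.0454), rho = −0.707 (p = 0.00406, adjusted p = 0.0266) and r = −0.525 without the 2 farthest. After the mean of each genotype was taken off, the values were −0.51 and −0.812, and within the runs they were −0.874 and −0.556 for Bmf and −0.833 and −0.61 for Bcl2l11. The sixth pair, Bcl2 and Bak1, had r = −0.715 (permutation p = 0.0056, adjusted p = 0.0454) but rho = −0.571 (permutation p = 0.0295, adjusted p = 0.102). Without the 2 farthest libraries r was −0.439, so it rests in part on those. Within the runs r was −0.815 and −0.829, and after genotype means were taken off it was −0.698.

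The intestine is a mixture of epithelium, muscle, nerve and other cells. Each gene was set beside the mean log2 CPM of markers of enterocytes (8 genes), smooth muscle (5 genes) and neurons (6 genes), which makes 30 relations over 15 libraries. Other marker lists, the proliferation markers among them, were not related to the family genes in this way. A relation to 1 of these lists is therefore not shown to be particular to that cell type. Bcl2 was higher where the neuron markers were higher, at r = 0.739 (two-sided permutation p = 0.00139, adjusted p = 0.0417) and rho = 0.721 (p = 0.00317, adjusted p = 0.0317). Without the 2 libraries farthest from the median of the markers r was 0.767, within the runs it was 0.455 and 0.871, and after genotype means were taken off it was 0.71. Against the enterocyte markers Bcl2 had r = −0.644 (permutation p = 0.00903, adjusted p = 0.0677) and rho = −0.582 (p = 0.0251, adjusted p = 0.125). The neuron markers summed to 282 to 369 CPM in wildtype, 277 to 368 CPM in knockout and 322 to 371 CPM in C362A.

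Pmaip1 and Bcl2l1 were higher where the enterocyte markers were higher. For Pmaip1 r was 0.676 (permutation p = 0.00533, adjusted p = 0.0633) and rho was 0.754 (p = 0.00155, adjusted p = 0.0317), with r = 0.523 without the 2 farthest libraries and 0.531 and 0.785 within the runs. For Bcl2l1 r was 0.676 (permutation p = 0.00633, adjusted p = 0.0633) and rho was 0.721 (p = 0.00309, adjusted p = 0.0317), with r = 0.795 without the 2 farthest and 0.683 and 0.673 within the runs. Mcl1 had rho = 0.70 (permutation p = 0.0046, adjusted p = 0.0345) but r = 0.459 (p = 0.0864, adjusted p = 0.288), and r = 0.0793 after genotype means were taken off. Pmaip1 was also lower where the neuron markers were higher by rank, at rho = −0.679 (permutation p = 0.00661, adjusted p = 0.0397) and r = −0.506 (p = 0.0552, adjusted p = 0.237). In 10 relations with the smooth muscle markers the adjusted p of r was 0.288 or more. With the enterocyte level as a covariate 0 of 10 genes passed in any comparison in edgeR, and the differences between C362A and wildtype changed sign for Bcl2 (−0.02), Bak1 (0.08), Bid (0.04) and Pmaip1 (0.12).

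**Figure D4:**
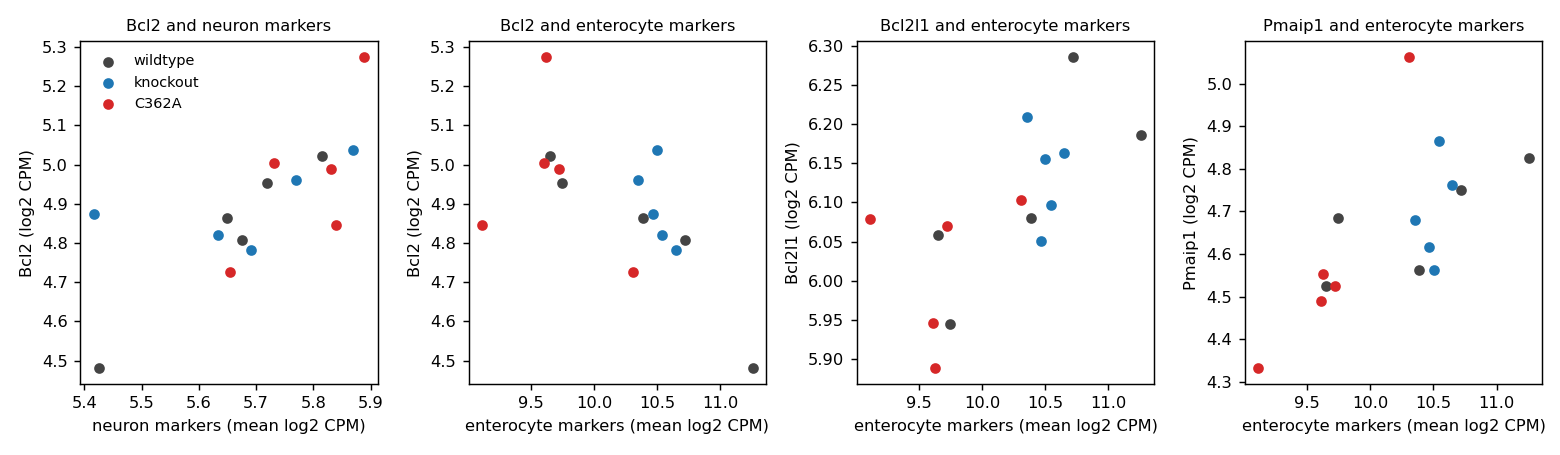
Level of a family gene (log2 CPM, vertical) against the mean log2 CPM of a marker list (horizontal), 1 point per library coloured by genotype (15 libraries). From left to right r is 0.739, −0.644, 0.676 and 0.676, and the C362A point at the top for Pmaip1 is replicate 5.

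For each family gene, the other gene whose log2 CPM followed it most closely over the 15 libraries was looked up among 14442 genes. The highest likeness was that of Bax to Vps25 (r = 0.969), a subunit of the ESCRT-II sorting complex. Next came Bcl2l1 with Cdipt (r = 0.941), the enzyme that makes phosphatidylinositol, Bak1 with the actin regulator Coro1b (r = 0.937), Bid with Oxa1l (r = 0.937), which inserts proteins into the inner mitochondrial membrane, and Bcl2l11 with Gpm6a (r = 0.933), a neuronal membrane glycoprotein. Bcl2 was closest to Pogk (r = 0.925), Pmaip1 to Gcnt2 (r = 0.906), Mcl1 to Zbtb9 (r = 0.838), Bmf to Serpinb6b (r = 0.834) and Bbc3 to Asic1 (r = 0.741). With the neuron markers, Bcl2l11 had r = −0.247 (two-sided permutation p = 0.376, adjusted p = 0.663). The likenesses to single genes are the highest of many values and are given as descriptions, with no test.

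The rest of the family was taken as 13 further genes, of which 9 had counts enough to be tested and 0 passed in any comparison in edgeR. Their median log2 fold change was −0.12 between C362A and wildtype (all genes 0.01), −0.13 between knockout and wildtype (all genes 0.00) and −0.02 between C362A and knockout (all genes 0.01). The antiapoptotic genes Bcl2l10, Bcl2a1a, Bcl2a1b and Bcl2a1d, the last 3 being near-identical copies whose reads uniquely aligned counting can lose, had at most 10 counts in a library and were not tested. Bad, a BH3-only gene governed by growth factor signalling, was the highest of the 13 at 28.4 RPKM, above Bok, a relative of Bax and Bak1, at 16.4 RPKM and Bcl2l13 at 11.8 RPKM.

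The largest difference in the whole family was that of Bcl2l15, a distant member known from gut epithelium. It had 2.94, 7.16, 9.90, 10.3 and 6.56 RPKM in wildtype. In knockout it had 8.93, 11.6, 10.9, 8.67 and 7.88 RPKM, and in C362A 2.81, 4.64, 4.06, 5.24 and 7.43 RPKM. All C362A libraries lay below all knockout libraries, and wildtype overlapped both. Groups did not overlap for 1 of the 9 further genes tested in that comparison (2.85% of all genes). The count was also 1 of 9 between knockout and wildtype (0.702% of all genes), and 0 of 9 between C362A and wildtype (1.16%). The gene between knockout and wildtype was Bcl2l12, lower in knockout, with a log2 fold change of −0.21 (SE 0.11, edgeR adjusted p = 0.9999). The log2 fold change of Bcl2l15 was −0.99 between C362A and knockout (SE 0.29, 95% interval −1.61 to −0.36, unadjusted p = 0.00456, edgeR adjusted p = 0.3173) and −0.60 between C362A and wildtype (SE 0.29, adjusted p = 0.3256). The enterocyte marker sums given above ran the same way, and those of C362A and knockout did not overlap. Marker level and genotype therefore cannot be told apart in that comparison. With the marker level as a covariate 0 of these 9 genes passed in edgeR, as without it, so that fit cannot decide. The part of the enterocytes in the Bcl2l15 values was not tested. Without C362A replicate 5 Bcl2l15 passed between C362A and knockout, at −1.20 (edgeR adjusted p = 0.0453), as did 4.35% of all genes. Bcl2l14 had the smallest p of these genes between knockout and wildtype, at −0.43 (SE 0.15, edgeR adjusted p = 0.9999).

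Downstream of the mitochondrial pore, 15 genes were tested (cytochrome c, the apoptosome, executioner caspases, inhibitors of apoptosis and nucleases) and 0 passed in any comparison in edgeR. The median log2 fold change was −0.02, 0.00 and −0.06 (C362A against wildtype, knockout against wildtype and C362A against knockout). By RPKM the highest were Casp6 at 80.2, an executioner caspase, Aifm1 at 47.9 and the mitochondrial nuclease gene Endog at 26.3. Dffb, the nuclease that cuts DNA in apoptosis, had 15.3 to 16.7 CPM in wildtype and 13.8 to 15.3 CPM in C362A. These genotypes did not overlap, which was so for 1 of the 15 genes and for 1.16% of all genes. The log2 fold change of Dffb between them was −0.15 (SE 0.07, edgeR adjusted p = 0.3055). Htra2, a mitochondrial protease that counters inhibitors of apoptosis, had 0.23 between C362A and knockout (SE 0.09, edgeR adjusted p = 0.3173). Birc3, an inhibitor of apoptosis, had 0.15 between knockout and wildtype (SE 0.09, edgeR adjusted p = 0.9999). Cycs, which encodes cytochrome c, was listed at 0.397 to 0.684 RPKM. It has many near-identical processed copies in the genome, so that its count is uncertain.

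Regulators and partners of the family made up 20 genes, of which 19 were tested and 0 passed in any comparison in edgeR, with medians of 0.01, 0.02 and −0.02 in the same order. Trp53 encodes p53, which induces Bbc3, Pmaip1 and Bax after DNA damage. It had 142, 134, 127, 116 and 135 CPM in wildtype, and 118, 115, 126, 138 and 115 CPM in knockout. In C362A it had 193, 151, 173, 156 and 117 CPM, so that 4 libraries lay above all wildtype and knockout libraries and replicate 5 lay among them. Its log2 fold change was 0.27 against wildtype (SE 0.10, unadjusted p = 0.0186, edgeR adjusted p = 0.2849) and 0.37 against knockout (SE 0.10, unadjusted p = 0.00259, edgeR adjusted p = 0.3173). Without C362A replicate 5 it passed both, at 0.36 and 0.46 (edgeR adjusted p = 0.0242 and 0.0383), as did 9.76% and 4.35% of all genes. The differences between C362A and wildtype of its targets in the family were −0.10 for Bbc3 (95% interval −0.37 to 0.16), −0.06 for Pmaip1 (−0.30 to 0.18) and −0.03 for Bax (−0.21 to 0.16) with all libraries, and −0.10, −0.20 and −0.03 without C362A replicate 5.

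E2f1, a cell cycle factor that can induce BH3-only genes, had 0.24 between C362A and knockout (SE 0.09, edgeR adjusted p = 0.3173) and passed there without C362A replicate 5, at 0.31 (edgeR adjusted p = 0.0431), as did 4.35% of all genes. The summed proliferation markers were 646 to 973 CPM in wildtype, 873 to 987 CPM in knockout and 810 to 1145 CPM in C362A, and their part in the Trp53 and E2f1 values was not tested. The highest regulators by RPKM were Vdac2 at 138, which holds BAK at the mitochondrial membrane, the stress factor Atf4 at 133 and Dynll2 at 112, the dynein light chain that binds BMF. Vdac2 and Dynll2 had log2 fold changes between −0.07 and 0.01 in the 3 comparisons. Atf4 had −0.23 between C362A and knockout (SE 0.11, edgeR adjusted p = 0.3677), and passed in the same fit without C362A replicate 5, at −0.36 (edgeR adjusted p = 0.0405).

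Some loci of the family overlap other genes, and where counting does not use strand, reads in shared stretches cannot be told apart. Cox4i2 overlaps Bcl2l1 and had 149 to 240 counts against 2046 to 2635. Ggnbp1 overlaps Bak1 and had 22 to 101 counts against 3917 to 5295. Acoxl overlaps Bcl2l11 and had 7 to 37 counts against 732 to 1136.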

How the data were processed

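PolyA libraries (TruSeq v2) from DNase-treated RNA were read as single 50 bp reads, per the labels' protocols. Reads were aligned with GSNAP to GRCm38, per the submitters' processing notes. The authors deposited counts of reads that align uniquely to each gene model, per the file headers, and RPKM values adjusted by size factors, per the file headers. No source used here says whether strand was used in counting. Entrez identifiers were named with RefSeq GRCm38.p6: 31049 of 36528 matched, and the 5479 others (1.69 to 1.96% of counts) stayed in the test.

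Counts of all 15 libraries were fitted in 1 model with edgeR 4.0.16 (R 4.3.3): TMM factors, filterByExpr (minimum count 10, minimum total 15), quasi-likelihood tests with robust estimates, 1 mean per genotype, no covariate. P-values were adjusted by Benjamini-Hochberg over 18370 genes, and a gene was called at an adjusted p under 0.05. CPM are counts per 1000000 after TMM scaling, with a prior count of 2 for log2 CPM. Standard errors and 95% intervals come from the same fit, and the procedure was tested on simulated data. Replicates of a genotype differed by more than sampling noise (chi-square per gene 10.7 to 138), so none was merged. Depth limits low genes: intervals cover counting and replicate error together.

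Alternatives were RLE factors, library totals, TMM without the 20 most abundant genes, no filter, a filter of 5 CPM in 5 libraries, robust estimates off, only the 2 groups compared, a term for the 2 runs of consecutive sample identifiers, the enterocyte marker level as covariate, DESeq2 1.42.0, limma-voom (limma 3.58.1), limma on log2(RPKM + 1) and log2(RPKM + 0.1), each library left out, and thresholds of 0.01 and 0.1. The BH3 core was sought in the coding sequence of the principal GENCODE M21 transcript of each family gene except Pmaip1, which was left out beforehand. The pattern was leucine, any 3 codons, glycine or alanine, then aspartate. The search required 1 match per gene, which each of the 9 genes had. A single core per gene is thus a condition of the search and not a result about the family, and matches in Pmaip1 were not sought. On either side 12 bases are printed. Genes were named by rule: the 10 family genes, Casp8 and Mlkl, from each other list the genes called, those with the smallest p in each comparison and the 3 with the highest RPKM, and the gene most like each family gene. Bcl2l10, Bcl2l12, Bcl2a1a, Bcl2a1b, Bcl2a1d, Cycs, overlapping genes and genes called only without a library were named after their values were seen. The members and lists were chosen with earlier results of these data known.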

Additional observations from a re-analysis of the deposited data

Results flagged for a closer look

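In groups of 5 libraries, the highest or lowest library was compared with the rest by its gap over the range of the group (Dixon's 95% critical value 0.71). Of 99 groups 7 were past it, and chance alone gives about 1 in 20. Among the 10 family genes these were Pmaip1 in C362A replicate 5, at 33.4 CPM against 20.1 to 23.5 CPM in the other C362A libraries, and Bmf in C362A replicate 1, at 50.8 CPM against 55.9 to 57.6 CPM. The summed RPKM of the BH3-only genes among the 10 was 34.8 in C362A replicate 5 against 28.6 to 30.3 in the rest of that genotype. The summed RPKM of the antiapoptotic genes among the 10 was 64.6 in knockout replicate 5 against 71.4 to 73.6 in the other knockout libraries. Atf4 was 221 CPM in wildtype replicate 4 against 235 to 241 CPM, and 289 CPM in knockout replicate 4 against 241 to 254 CPM. Htra2 was 34.6 CPM in knockout replicate 4 against 30.4 to 31.5 CPM.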

How the results depend on the processing

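No family gene passed under any of the 28 other settings in any comparison, and the smallest adjusted p was 0.109 (Pmaip1 between C362A and knockout without C362A replicate 5). At thresholds of 0.01 and 0.1 the count was also 0. Of 30 differences, 15 kept 1 sign throughout, and 40 of 840 values changed sign, none of them called. With the enterocyte covariate these were −0.0222 (Bcl2), 0.0842 (Bak1), 0.0447 (Bid) and 0.121 (Pmaip1) between C362A and wildtype, −0.0167 (Pmaip1) between knockout and wildtype, and −0.131 (Bcl2), 0.186 (Bak1) and 0.138 (Pmaip1) between C362A and knockout. With library totals they were 0.0113 (Bid) and 0.00509 (Bcl2l11) between C362A and wildtype and 0.0225 (Bak1) between C362A and knockout. The cause was not tested. The enterocyte level of C362A and knockout did not overlap, so the covariate values between these genotypes cannot part it from genotype.

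Leaving out each library in turn, the differences that changed sign ranged as follows. Between C362A and wildtype they were −0.087 to 0.00845 for Bax, −0.0424 to 0.0218 for Bid, −0.0454 to 0.0418 for Bcl2l11 and −0.196 to 0.00429 for Pmaip1. Between knockout and wildtype they were −0.0185 to 0.111 for Bcl2, −0.0192 to 0.0626 for Bcl2l1, −0.106 to 0.0135 for Bax, −0.142 to 0.014 for Bak1 and −0.0169 to 0.0656 for Pmaip1. Between C362A and knockout they were −0.00128 to 0.14 for Bcl2, −0.0557 to 0.073 for Bax and −0.0453 to 0.0188 for Bak1. Called genes outside the 10 ranged between C362A and wildtype from 0 to 1 of the further family, 0 to 1 of the downstream genes and 0 to 2 of the regulators, and between C362A and knockout from 0 to 1 and 0 to 4 for the further family and the regulators. In each case the higher count came without C362A replicate 5, where Bcl2l2 (−0.42), Birc2 (−0.33), Ddit3 (−0.57) and Trp53 passed against wildtype, and Bcl2l15, Atf4, Ddit3 (−0.66), E2f1 and Trp53 against knockout. Of all genes, 9.76% (1807) and 4.35% (805) passed in these fits. No paired analysis was possible because replicate numbers were given in order of deposition. Bbc3 had the fewest counts of the 10, at 204 to 330, and the part of depth in its spread was not tested.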
